A study of Mus musculus with 13 samples.

Results

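Schwann cells ensheathe the motor and sensory axons that run into skeletal muscle, and the myelinating ones wrap a single axon in many turns of membrane. Their programme is driven by the transcription factor Sox10, which specifies the lineage and turns on Egr2 (Krox20), the factor that switches on the myelin genes. The membrane is built from structural proteins such as Mbp, which packs its cytoplasmic faces, and Pmp22, a tetraspan protein of compact myelin, while Prx and Mag sit in the uncompacted parts, Prx linking the outer sheath to the basal lamina through Drp2 and Mag facing the axon. S100b is a calcium-binding protein found throughout the lineage, and Ngfr, the low-affinity neurotrophin receptor, is high in immature, non-myelinating and repair Schwann cells. In whole muscle these cells reside in intramuscular nerve branches and at nerve terminals, so their transcripts make up a small part of the RNA.

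The 8 genes Mbp, Pmp22, Prx, Mag, Sox10, Egr2, S100b and Ngfr were taken by name from the 17924 genes of the deposited tables, as markers of Schwann cells and myelin, and were compared among 3 muscles. They were chosen on earlier results of these same tables, in which their levels differed between muscles, so their differences between muscles are given as a description with standard errors, and counts of members past a threshold stand only beside the same count over all genes. The libraries came from mdm mice (muscular dystrophy with myositis), which carry a rearrangement in the titin gene Ttn that removes part of the protein at its N2A-PEVK region, from a colony of the strain B6C3Fe a/a-Ttn mdm/J. There were 5 libraries of the extensor digitorum longus (EDL), a fast muscle of the lower leg, 5 of the psoas, a fast muscle of the lower back, and 3 of the soleus, a slow muscle of the calf. Every library was of the genotype labelled mdm and carried no further treatment. The labels give male mice for replicate 2 of EDL and psoas and replicates 1 and 2 of soleus, female mice for replicate 3 of EDL and psoas, and no sex for the others. The EDL libraries came from mice of 38 days, with 1 of 42 days. The psoas libraries came from mice of 38 days in 3 cases, 42 days in 1 and 29 days in 1 (replicate 1), and the soleus libraries from mice of 33, 36 and 38 days. Wild-type muscle was not analysed here, so no value below says how a muscle differed from its healthy counterpart. Whole muscles were taken, and the mice of the study were fewer than its libraries, so some muscles shared a mouse in ways the labels do not give.

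The libraries held between 9114176 and 48835209 counts, and all 8 genes were among the 17069 tested, those that reached a normalized count of 10 in 3 libraries or more. Sox10 passed it through 3 psoas libraries alone. The muscle labels matched the myosins, since Myh7 and Tnnt1, slow-fibre genes, were higher in each soleus library than in any other and Myh4, the fastest myosin, was higher in each EDL library than in any other. The Ttn rearrangement could not be checked, because the tables hold 1 count for the whole gene. The labels also carry a code (T1 and T3 to T6) that they do not explain. Replicate 1 of psoas was the only library with code T3 and the only one of a 29-day-old mouse, so its age, its code and its own level cannot be told apart. The study gives an RNA integrity number for each library, and no psoas library has a higher one than any EDL library. RNA integrity and muscle thus cannot be told apart in psoas against EDL. In bulk muscle, fewer Schwann cells and less of a transcript per cell cannot be told apart.

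Pmp22 (ENSMUSG00000018217) lies on chromosome 11 at 63128982 to 63159547 in GRCm38, plus strand. Prx (ENSMUSG00000053198) and Mag (ENSMUSG00000036634) are both on chromosome 7, at 27499324 to 27520214 on the plus strand and at 30899176 to 30914873 on the minus strand. Sox10 (ENSMUSG00000033006) is on chromosome 15 at 79154908 to 79165240, minus strand. Egr2 (ENSMUSG00000037868) and S100b (ENSMUSG00000033208) are on chromosome 10, at 67535475 to 67542188 and at 76253853 to 76261159, both on the plus strand. Ngfr (ENSMUSG00000000120) is on chromosome 11 at 95568818 to 95587735, minus strand. All are protein-coding genes, and each count covers the exons of the whole gene. Mbp, Prx and S100b carry an overlapping gene on the opposite strand that was also counted, Mbp the pseudogene Rpl21-ps8, Prx the antisense RNA Gm15541 and S100b the gene Dip2a. The strand setting of the counting is not given in the sources used here, so reads of these pairs cannot be told apart.

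The stretches just upstream of the start sites are shown because Sox10 and Egr2 are the known drivers of the myelin genes. They are the 250 bases before the RefSeq start (GRCm38.p6), 5′ to 3′ on the gene's strand, for the members with the largest differences among those printed, Prx and Pmp22, and for the members that held a searched motif, Mag and Egr2. Capitals mark a match to the SOX letters ACAAAG or their reverse complement CTTTGT, or to the EGR letters GTGGGCG or CGCCCAC. The 2 motifs can share bases at their ends, and none of the windows printed holds both.
Prx, chr7:27499074-27499323, plus strand: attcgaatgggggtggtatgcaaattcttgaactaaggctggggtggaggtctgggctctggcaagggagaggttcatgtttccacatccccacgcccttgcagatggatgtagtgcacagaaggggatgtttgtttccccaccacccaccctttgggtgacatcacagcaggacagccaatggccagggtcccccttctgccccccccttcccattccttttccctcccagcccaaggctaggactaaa
Pmp22, chr11:63128732-63128981, plus strand: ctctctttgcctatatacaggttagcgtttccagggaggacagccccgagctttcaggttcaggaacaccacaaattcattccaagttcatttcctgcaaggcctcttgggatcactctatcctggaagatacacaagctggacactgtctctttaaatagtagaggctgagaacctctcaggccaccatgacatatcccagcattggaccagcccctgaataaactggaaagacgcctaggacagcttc
Mag, chr7:30914864-30915113, minus strand: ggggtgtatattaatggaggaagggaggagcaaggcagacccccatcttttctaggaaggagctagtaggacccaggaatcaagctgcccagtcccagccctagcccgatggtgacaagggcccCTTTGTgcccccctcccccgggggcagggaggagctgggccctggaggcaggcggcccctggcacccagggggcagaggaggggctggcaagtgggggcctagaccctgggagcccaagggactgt
Egr2, chr10:67535249-67535498, plus strand: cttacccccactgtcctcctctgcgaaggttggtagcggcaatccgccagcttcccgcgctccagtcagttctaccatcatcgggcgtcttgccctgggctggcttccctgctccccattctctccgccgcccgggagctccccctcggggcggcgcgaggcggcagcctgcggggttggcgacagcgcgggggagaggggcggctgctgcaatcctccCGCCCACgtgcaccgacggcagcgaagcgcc

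Of the 6 members searched (Pmp22, Prx, Mag, S100b, Egr2 and Ngfr), 1 held the SOX letters and 1 the EGR letters. In Mag the SOX letters began at position -126, counted from the start site, and in Egr2 the EGR letters began at position -31. Among all 32817 windows of the same length, 5404 (16.5%) held the SOX letters and 2305 (7.02%) the EGR letters. These matches are letters in a window and say nothing of binding.

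Across the 3 muscles Mbp, Pmp22, Prx and Mag had their highest mean in psoas and their lowest in EDL, with soleus between, and for Mbp, Pmp22 and Prx psoas also had the widest fold range from library to library. Levels are given as normalized counts, the read count divided by a size factor per library that the authors computed. Mbp (ENSMUSG00000041607), the packing protein of compact myelin, lies on chromosome 18 at 82475146 to 82585637, plus strand. It had normalized counts of 729, 334, 334, 317 and 798 in EDL replicates 1 to 5, of 9696, 5795, 1558, 1228 and 3169.7 in psoas replicates 1 to 5, and of 2910.3, 689.9 and 1109 in soleus replicates 1 to 3. Every psoas library lay above every EDL library, while soleus ran from within the EDL range to within the psoas range. The mean was 502 ± 239.8 (SD, n = 5) in EDL, 4289 ± 3521 (SD, n = 5) in psoas and 1569.7 ± 1179.8 (SD, n = 3) in soleus. In the fit across all genes, psoas exceeded EDL by 3.09 on the log2 scale (standard error 0.59), an 8.53-fold difference, and soleus exceeded EDL by 1.65 (standard error 0.61).

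Pmp22, the tetraspan protein of compact myelin, gave the same order at a higher level. Its normalized counts were 1251, 789, 657, 1031 and 1043 in EDL, 10379.5, 5147, 1602, 1869 and 3407 in psoas, and 2601, 1365 and 1639 in soleus, each in replicate order. Both psoas and soleus lay wholly above EDL, and the soleus values fell inside the psoas range except the lowest of them. Psoas exceeded EDL by 2.23 on the log2 scale (standard error 0.44), a 4.70-fold difference, and soleus exceeded EDL by 0.98 (standard error 0.48). Pmp22 is not confined to Schwann cells, being made also by fibroblasts and other cells.

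Prx, periaxin, the scaffold of the outer sheath, is made mainly by myelinating Schwann cells. Its normalized counts were 162, 86.1, 75.7, 70.8 and 162 in EDL, 2515, 1064, 364, 265 and 539 in psoas, and 535, 227 and 213 in soleus. As for Pmp22, all psoas and all soleus libraries exceeded all EDL libraries. The psoas minus EDL difference was 3.08 on the log2 scale (standard error 0.57), or 8.48-fold, and the soleus minus EDL difference was 1.55 (standard error 0.60).

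Mag, the myelin-associated glycoprotein that faces the axon, was present at far fewer reads. Normalized counts were 33.2, 7.02, 0, 8.71 and 17.6 in EDL, 105, 83.3, 41.2, 31.3 and 48.9 in psoas, and 54.6, 15 and 24.1 in soleus. The highest EDL library reached just above the lowest psoas library, so the groups overlapped in that pair, and 1 EDL library held no read. Psoas exceeded EDL by 2.13 on the log2 scale (standard error 0.62) and soleus exceeded EDL by 1.16 (standard error 0.69).

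**Figure D1:**
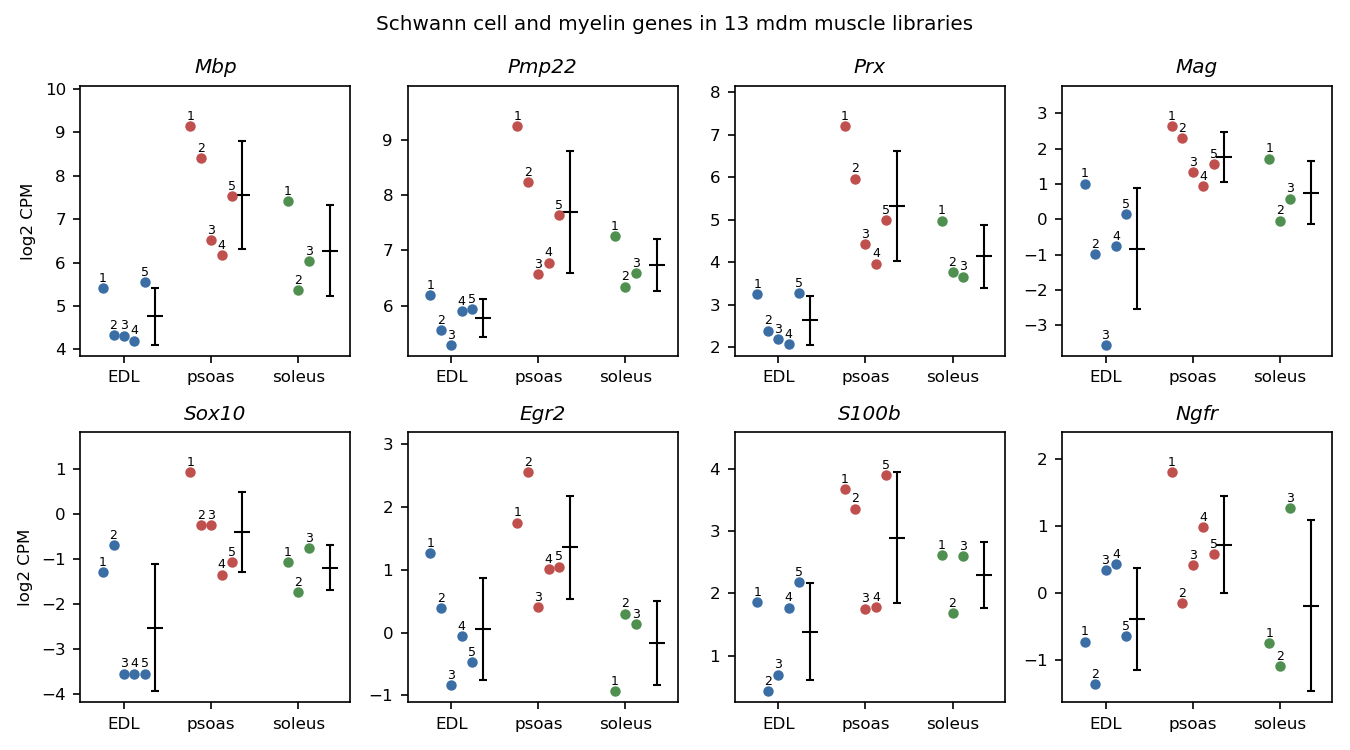
Log2 CPM (read counts scaled by library size and TMM factor, with a prior count of 2) of the 8 genes in each library of mdm EDL, psoas and soleus; each point is 1 library with its replicate number, and the bar beside each group is the mean ± SD (n = 5, 5 and 3). For Mbp, Pmp22 and Prx the 5 psoas points lie above the 5 EDL points, with psoas replicates 1 and 2 highest, whereas the groups overlap for the other 5 genes; in Mag and Sox10 the lowest EDL points are libraries with no read.

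The 2 transcription factors of the set were measured at low counts. Sox10 had normalized counts of 5.54, 8.93, 0, 0 and 0 in EDL, 30.7, 12.8, 12.8, 5.21 and 6.63 in psoas, and 6.62, 3.57 and 8.6 in soleus. EDL replicates 3, 4 and 5 held 0 reads, so Sox10 was not detectable there at these depths, while every psoas and soleus library held some. The psoas minus EDL difference was 1.93 on the log2 scale with a standard error of 0.79, and the soleus minus EDL difference of 0.75 was smaller than its standard error of 0.94. Sox10 had the lowest level per kilobase of the 8 genes in each muscle.

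Egr2, Krox20, departed from the other members in soleus. Its normalized counts were 40, 20.4, 7.96, 15.2 and 10.8 in EDL, 55.9, 98.8, 21.1, 33 and 34 in psoas, and 7.45, 19.3 and 17.2 in soleus. All soleus libraries lay below all psoas libraries, and soleus and EDL overlapped throughout. Psoas exceeded EDL by 1.30 on the log2 scale (standard error 0.49), whereas the soleus minus EDL value was -0.45 (standard error 0.60), the single negative value of the set in that comparison. The soleus minus psoas value was -1.76 (standard error 0.61).

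Egr2 is also an immediate early gene, induced within minutes in many cells, so the other genes of that class are given beside it. Of 7 immediate early genes tested, 0 were called by edgeR or DESeq2 in any of the 3 comparisons. In psoas against EDL, soleus against EDL and soleus against psoas, 2, 1 and 0 had an unadjusted edgeR p under 0.05. Of all genes tested, 5679, 2584 and 2163 had. The median psoas minus EDL difference of these 7 was -0.12 on the log2 scale. Their summed normalized counts ranged from 1586 to 3978 in EDL, 1580.0 to 4296 in psoas and 1478 to 2156 in soleus. Egr1, its closest relative on that list, had a psoas minus EDL difference of 1.29 on the log2 scale (standard error 0.53), much like that of Egr2. The part of this class in the Egr2 values was not tested.

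S100b, the calcium-binding lineage marker, had normalized counts of 61.3, 21.1, 25.9, 57.7 and 75.7 in EDL, 217, 175, 55.9, 57.3 and 254 in psoas, and 103, 52.8 and 101 in soleus. Replicates 1, 2 and 5 of psoas stood above all EDL libraries, and replicates 3 and 4 lay among the EDL values. Psoas exceeded EDL by 1.65 on the log2 scale (standard error 0.47), and soleus exceeded EDL by 0.82 (standard error 0.53).

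Ngfr, the neurotrophin receptor of immature and non-myelinating Schwann cells, had normalized counts of 8.94, 5.1, 19.9, 21.8 and 9.47 in EDL, 57.8, 13.9, 21.1, 32.1 and 24 in psoas, and 8.69, 6.43 and 39.5 in soleus. The groups overlapped in each pair of muscles, and soleus held both some of the lowest values and the second highest. Its psoas minus EDL difference, 1.25 on the log2 scale (standard error 0.57), was the smallest of the 8 genes.

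Set side by side, the 8 genes all had a positive psoas minus EDL value, from 1.25 to 3.09 with a median of 2.03 on the log2 scale, against a median of 0.02 over all genes tested. A gene was called where edgeR's quasi-likelihood test, adjusted by Benjamini and Hochberg's method over all 17069 genes, gave an adjusted p under 0.01 and the log2 difference exceeded 1 in size. In psoas against EDL, 2.43% of all genes tested were called higher and 2.5% lower, and of the 8 members 3 were called higher (Mbp, Pmp22 and Prx) and 0 lower. DESeq2 called 4.76% of all genes higher in that comparison and 5 of the members, adding Mag and S100b. An unadjusted edgeR p under 0.05 was held there by 5679 genes, all 8 members among them. Since the members were chosen with this contrast known, nothing is read from these counts. For the same 3 members the 5 psoas libraries did not overlap the 5 EDL libraries, a pattern shown upwards by 6.48% of all genes tested.

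The soleus comparisons were weaker. In soleus minus EDL, 7 of the 8 members had a positive value, with a median of 0.90 on the log2 scale against -0.03 over all genes. None was called there, where 0.533% of all genes were called higher, although 2 members and 2584 genes had an unadjusted edgeR p under 0.05, and DESeq2, which called 1.58% of all genes higher, also called 0 members. The groups did not overlap for Pmp22 and Prx, as for 5.33% of all genes tested. In soleus minus psoas all 8 values were negative, from -1.76 to -0.81 with a median of -1.22 against -0.03 over all genes. Again 0 members were called, where edgeR called 0.00586% and DESeq2 0.445% of all genes lower, and 4 members and 2163 genes had an unadjusted edgeR p under 0.05. Egr2 alone had soleus libraries wholly below the psoas libraries, as did 5.19% of all genes. The 3 comparisons share libraries, so their values are given side by side and not as separate evidence.

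**Figure D2:**
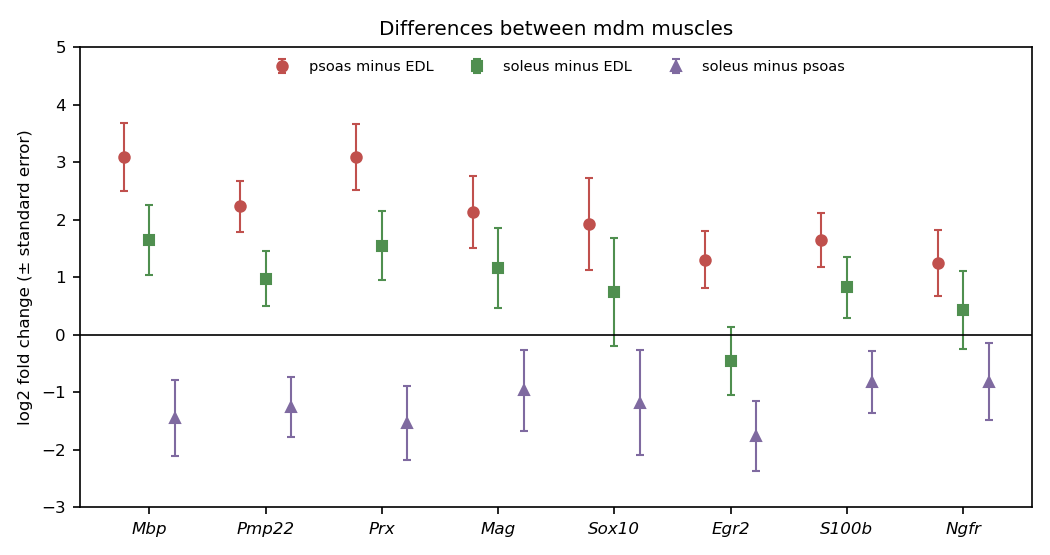
Log2 fold change of each of the 8 genes, with its standard error as the bar, in psoas minus EDL (circles), soleus minus EDL (squares) and soleus minus psoas (triangles), from 1 edgeR fit of 13 libraries. All circles are above 0 (1.25 to 3.09), all triangles below 0 (-1.76 to -0.81), and the squares lie between, with Egr2 (-0.45) the one below 0.

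The libraries of 1 muscle were far from uniform, and the myelin genes moved together in them. Within psoas the highest library exceeded the lowest by 7.90-fold for Mbp, 6.48-fold for Pmp22 and 9.49-fold for Prx, against 2.52-fold, 1.90-fold and 2.29-fold within EDL. Replicate 1 of psoas was the highest of the 13 libraries for 6 of the 8 members and among the highest 2 for all 8. Replicate 2 of psoas held the highest Egr2, and replicate 5 the highest S100b. Within soleus, replicate 1, the youngest at 33 days, was highest for 5 of the 8 members.

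The psoas minus EDL values were therefore computed again without the libraries that stood apart. Without psoas replicate 1, so that the ages in EDL and psoas ran alike from 38 to 42 days, the log2 difference was 2.55 (standard error 0.52) for Mbp, 1.66 (0.34) for Pmp22 and 2.32 (0.43) for Prx, and these 3 members were still called. The Prx difference is the one that moved by more than 1.5 times in fold. With both psoas replicates 1 and 2 left out, a choice made after seeing the data, it was 1.98 (standard error 0.48) for Mbp, 1.26 (0.30) for Pmp22 and 1.79 (0.38) for Prx, all 8 members kept a positive value, and 0 were called. Leaving out an EDL library also changed the calls with little change in the values. None was called without EDL replicate 3, where Mbp and Prx each differed by 2.98, 1 (Prx) without EDL replicate 2 or without psoas replicate 2, and 2 (Mbp and Prx) without EDL replicate 5. The count over all genes fell in the same fits. From 415 genes called higher in psoas with all libraries, it was 170 without EDL replicate 3, 402 without EDL replicate 2, 208 without psoas replicate 2, 199 without EDL replicate 5, 247 without psoas replicate 1 and 69 with both psoas libraries left out.

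Within a label code, where muscles can be compared at 1 code, all 8 members were higher in psoas than in EDL in T4 (1 library each, median difference 2.80 in log2 CPM), in T5 (1 library each, median 1.74) and in T6 (2 libraries each, median 1.43). For soleus minus EDL, 6 of 8 were positive in T4 and 8 of 8 in T6. For soleus minus psoas, 8 of 8 were negative in T4 and 6 of 8 in T6, where Sox10 and Ngfr were positive. Each of these differences rests on 1 or 2 libraries a side and has no test. The members were chosen on earlier results of these data and no share over all genes is given, so nothing is read from these counts. Some signs rest on few reads. In T5 the Ngfr difference was 0.07, while Mag (4.89) and Sox10 (3.31) were set against an EDL library with 0 reads. In T6 both EDL libraries held 0 Sox10 reads. With the replicate number as a block, a fit in which 3.74% of all genes were called higher in psoas than in EDL, 4 members were called, Mag (2.37, standard error 0.49) joining the other 3. That block joined soleus libraries to EDL and psoas libraries from mice of other ages.

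Levels were compared between genes only after division by exon length, as normalized counts per kilobase of merged exons. Pmp22 was the most abundant member in each muscle, with means of 405 in EDL, 1904 in psoas and 794 in soleus, and Mbp was second, with 59.3, 506 and 185. Pmp22 did not overlap Mbp in EDL or soleus. In psoas their ranges over libraries overlapped, although Pmp22 stood above Mbp within each library. Prx followed in psoas (170.2) and in soleus (58.3), where it overlapped S100b (102 and 57.7), and in EDL S100b (32.6) stood above Prx (20), again with overlapping ranges. A gap separated these 4 genes from Mag, Egr2 and Ngfr, which had means between 3.27 and 15.2 in the 3 muscles and ranges that overlapped each other, and from Sox10, with 0.95 in EDL, 4.47 in psoas and 2.05 in soleus.

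The other myelin genes, 13 in a list that leaves out the 8 members, had a positive psoas minus EDL value in 12 cases, with a median of 2.83 on the log2 scale. By edgeR 7 were called higher and 0 lower, where 2.43% of all genes tested were called higher. The list was drawn up with earlier results of these data known, so neither its count nor the adjusted p of its genes is independent evidence.

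Genes of myelin lipid synthesis were also called. Ugt8a, which makes galactosylceramide, had normalized counts of 41.7, 21.7, 33.8, 27.2 and 71.7 in EDL, 903, 831, 170.4, 244 and 666 in psoas, and 364, 57.8 and 141 in soleus. All psoas libraries lay above all EDL libraries for Ugt8a, and soleus overlapped both. It rose by 3.86 on the log2 scale in psoas against EDL (standard error 0.58, edgeR adjusted p = 0.0016), the largest difference of the list. Fa2h, which hydroxylates the fatty acids of galactosylceramide, rose by 3.58 (standard error 0.78, edgeR adjusted p = 0.0083), and leaving out single libraries ended that call in 8 of 13 fits, as did limma and a fit with the label code as a term. Among genes of membrane proteins, Mal rose by 3.20, Pllp by 2.87 and Ncmap by 2.83. Drp2, the partner of Prx at the outer sheath, rose by 2.36 (standard error 0.37, edgeR adjusted p = 0.0018), and Cnp, a myelin enzyme, by 1.5 (standard error 0.30, edgeR adjusted p = 0.0057).

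Of the 6 genes not called, the gap junction gene Gjb1 (2.66), the tight junction gene Cldn19 (2.74) and the lipid carrier Pmp2 (2.95) had large differences with large standard errors of 0.74, 0.64 and 1.06. Dusp15, a phosphatase of myelinating cells, had 3.16 with a standard error of 0.76. It reached at most 9.79 normalized counts in EDL and 9.52 in soleus. It thus passed the filter on low counts through psoas libraries alone. Gjc3 (1.19) was smaller, and Mpp6 was the single negative value (-0.81). In soleus against EDL 11 of the 13 had a positive value (median 1.39), and edgeR called 0 (5 had an unadjusted p under 0.05) and DESeq2 called 2, Ugt8a and Drp2. Over all genes DESeq2 called 1.58% higher there. In soleus against psoas 12 had a negative value (median -1.43), and edgeR and DESeq2 both called 0, although 8 had an unadjusted edgeR p under 0.05. By DESeq2, 10 of the 13 were called higher in psoas than in EDL, where 4.76% of all genes were. With the replicate block 11 were, against 3.74% of all genes, and Dusp15 was among those called by both.

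The same libraries carried the high values here. Replicate 1 of psoas was the highest of all 13 libraries for 12 of the 13 genes. Without it 4 of the genes were called, without psoas replicate 2 also 4, without EDL replicate 2 also 4, without EDL replicate 3 only 2, and with psoas replicates 1 and 2 both left out 1, with a median difference of 1.95. The calls over all genes fell in these fits as well, as given above for the members. In psoas against EDL Drp2 was called in every fit made, and Ugt8a in every fit but the last named. Pllp and Ncmap lost their calls in 1 of the 13 fits that left out 1 library (without EDL replicate 3), and Mal and Cnp in 6 each.

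**Figure D3:**
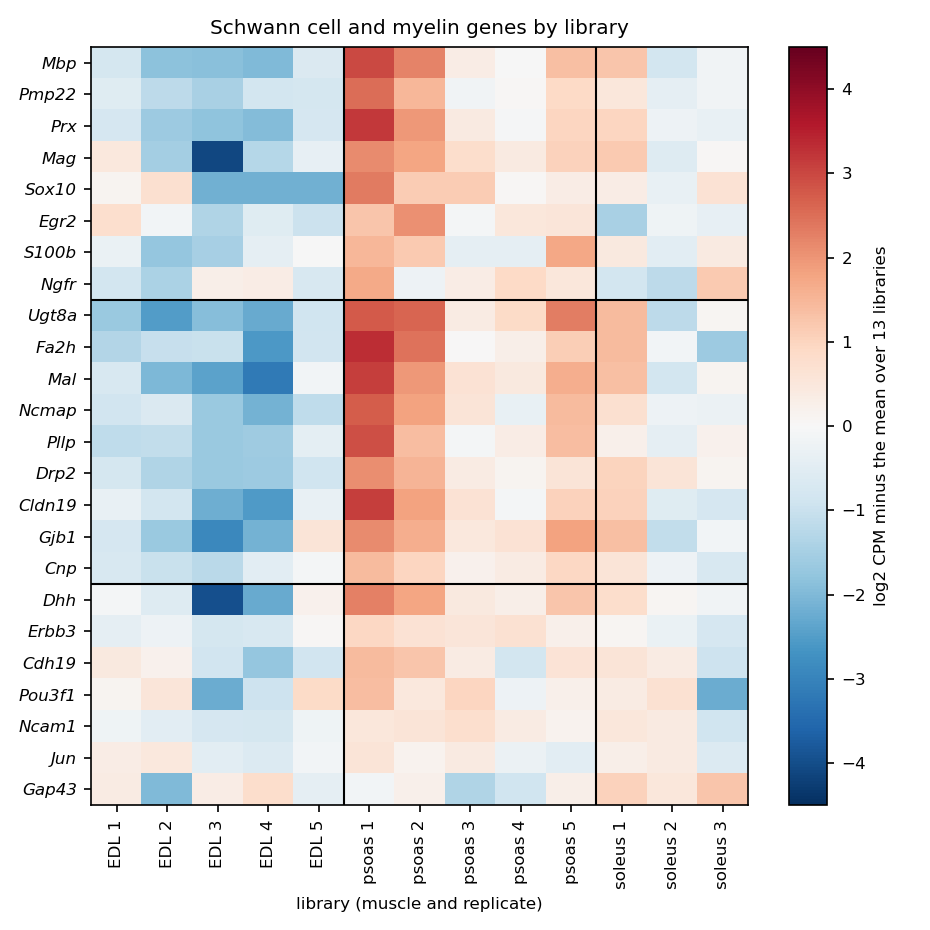
Log2 CPM of each gene minus its mean over the 13 libraries, one column a library and one row a gene, with the 8 members above the first line, other myelin genes between the lines, and genes of the Schwann lineage and of repair Schwann cells below. The columns of psoas replicates 1 and 2 are red for nearly all myelin genes and the EDL columns mostly blue, while the rows of Ncam1, Jun and Gap43 are pale or follow no such pattern; the deepest colours reach -4.09 and 3.31.

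As a list, genes of the Schwann cell lineage that are not parts of myelin had a smaller median psoas minus EDL difference than the myelin genes. How far each gene of the list is confined to Schwann cells was not tested. Its summed normalized count had a mean of 3534 in EDL, of which Zeb2 gave 1808 and Scn7a 983. Of 15 on the list, 12 were tested, all 12 had a positive psoas minus EDL value, and the median was 0.61 on the log2 scale, below the 2.03 of the members and the 2.83 of the myelin list. By edgeR 1 was called, Erbb3, the neuregulin receptor of Schwann cells, with normalized counts of 233, 258, 175, 187 and 319 in EDL and 589.7, 488, 443, 489.9 and 365 in psoas. Its psoas libraries lay above all EDL libraries. Erbb3 rose by 1.01 (standard error 0.21, edgeR adjusted p = 0.0068), just past the fold limit, and that call was lost in 9 of the 13 fits that left out 1 library. Dhh, the signal from Schwann cells to the nerve sheath, had a value of 2.19 (standard error 0.62) and the cadherin Cdh19 one of 1.12 (0.46), neither called by edgeR. DESeq2 called 3 genes of the list, adding Dhh and Adgrg6, and the edgeR fit with the replicate block called 4, adding Dhh, Adgrg6 and Cdh19. Over all genes, 2.43% were called higher by edgeR, 4.76% by DESeq2 and 3.74% with the replicate block. Pou3f1 (Oct6), the factor of the promyelinating stage, had 0.73 (standard error 0.68).

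Markers of repair Schwann cells, the state that follows nerve injury, were tested for 6 of 11 genes, with a median psoas minus EDL difference of 0.47. By edgeR 0 were called in any comparison, although 4 had an unadjusted p under 0.05 in psoas against EDL, and DESeq2 called 1, Bdnf, higher in soleus than in psoas. Over all genes DESeq2 called 95 higher in soleus than in psoas. Jun, the factor that drives that state, had a value of 0.14 (standard error 0.28) and Gap43, a growth-associated protein, one of -0.34 (0.56). The mean of Jun in EDL was 422 normalized counts per kilobase, against 0.95 for Sox10. Which cells of the whole muscle made the Jun reads cannot be told, so its value does not describe Schwann cells. Ncam1, an adhesion molecule of non-myelinating cells that muscle fibres also make, had one of 0.95 (0.25). The other 5 genes of that list, Gfap and Shh among them, were not analysed here.

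Of 6 genes of the node and of axon contact edgeR and DESeq2 called 0 in the 3 comparisons, with a median psoas minus EDL value of 0.74 and 4 genes at an unadjusted edgeR p under 0.05 there, and Gldn, gliomedin, which gathers sodium channels at nodes, had 0.33 (standard error 0.35). Of 4 genes of neuregulin signalling 1 was called in psoas against EDL, Erbb2, the partner of Erbb3, which rose by 1.62 (standard error 0.28, edgeR adjusted p = 0.0027). That call was lost with psoas replicates 1 and 2 both left out, and Erbb2 is also made outside nerves. Over all genes edgeR called 2.43% higher in psoas than in EDL.

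The cells of the nerve sheath were represented by 8 genes, of which 7 had a positive psoas minus EDL value, with a median over the 8 of 1.29. In psoas against EDL 2 were called higher, Cldn1, a tight junction protein of the perineurium, by 1.41 (standard error 0.23) and Itgb4, a laminin receptor of perineurial and myelinating Schwann cells, by 2.05 (standard error 0.40). Over all genes edgeR called 2.43% higher there and 2.5% lower. DESeq2 also called Slc2a1 and Sox9 higher, where it called 4.76% of all genes higher. The replicate block added Slc2a1, where 3.74% of all genes were called higher. The call of Itgb4 was lost in 4 of the 13 fits that left out 1 library, in the fit of the 2 muscles alone and without psoas replicates 1 and 2, and that of Cldn1 in the last of these. Wif1, a secreted Wnt inhibitor, went the other way and fell by 3.38 in psoas against EDL (standard error 0.46, edgeR adjusted p = 0.0010) and by 3.0 in soleus against EDL (standard error 0.56, edgeR adjusted p = 0.0094). Its normalized counts were 199 to 445 in EDL, 10.2 to 64.7 in psoas and 28.1 to 48.6 in soleus, with no overlap between EDL and either other muscle. Wif1 was called in psoas against EDL in every fit made, whereas its call in soleus against EDL was lost in 10 of the 13 fits that left out 1 library.

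Axonal genes had values on the other side of 0. The 2 tested of 8, Prph and Uchl1, had negative psoas minus EDL values of -1.63 (standard error 0.48) and -0.41 (0.68). By edgeR 0 were called, with Prph at an unadjusted p under 0.05, as were 5679 of all genes, and DESeq2 called Prph lower. Their summed normalized counts ranged from 45.3 to 207 in EDL, from 15 to 112 in psoas and from 78.6 to 96.3 in soleus. The 4 markers of oligodendrocytes, the myelinating cells of the central nervous system, which share Mbp, Mag and Sox10 with Schwann cells, were not analysed here, and the peripheral genes Prx and Ncmap were present in all 13 libraries.

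Markers of other tissues that a dissected muscle may carry moved with the muscles as well. Of 7 mesothelial genes, chosen after seeing the data, 6 were called higher in psoas than in EDL, where 2.43% of all genes were. In soleus against EDL 1 was called higher, Lrrn4, where 0.533% of all genes were. Their smallest psoas minus EDL value was 2.40 (Msln), above the median of the members. Upk3b, Wt1 and Bnc1 passed the filter on low counts through psoas libraries alone, so their calls rest on the muscle in which they are high. The summed normalized count of the 7 ranged from 63.7 to 169.9 in EDL, 471 to 1454 in psoas and 124 to 275 in soleus, and was highest in psoas replicates 1 and 2 (1127 and 1454), the same libraries that were highest in most myelin genes. Of its defining markers, Upk3b and Wt1 reached at most 0.426 and 0.638 normalized counts in EDL and Bnc1 was at 0 in all 5 EDL libraries. The part of this tissue in the Schwann cell and myelin values was not tested.

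The summed normalized count of 9 muscle fibre genes was lower outside EDL, ranging from 1411791 to 2692124 in EDL, 550262 to 1046536 in psoas and 572235 to 855007 in soleus, with EDL overlapping neither. Of the 9, 3 were called lower in psoas than in EDL (Ckm, Tnnt3 and Myh4), where 2.5% of all genes were, and 8 had a negative value. The slow myosin Myh7 had a positive one of 0.38 (standard error 0.91), and its mean was 5002 in EDL, 6474 in psoas and 147261 in soleus. The part of this shift in the values of the members was not tested.

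The lists of 5 further cell types had smaller medians than the members in psoas against EDL. The median psoas minus EDL difference was 0.52 for 6 macrophage genes, 0.16 for 6 endothelial genes, 0.05 for 6 fibroblast genes, 0.86 for 6 adipocyte genes and -0.20 for 2 melanocyte genes. Both edgeR and DESeq2 called 0 in each list, where 0, 1, 2, 2 and 0 genes in that order had an unadjusted edgeR p under 0.05. In soleus against EDL edgeR called 2 adipocyte genes higher, Adipoq and Cfd, and DESeq2 5. Over all genes edgeR called 0.533% higher there and DESeq2 1.58%. The summed adipocyte count ranged from 53980 to 83251 in soleus against 9146 to 27996 in EDL and 14320 to 37122 in psoas.

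**Figure D4:**
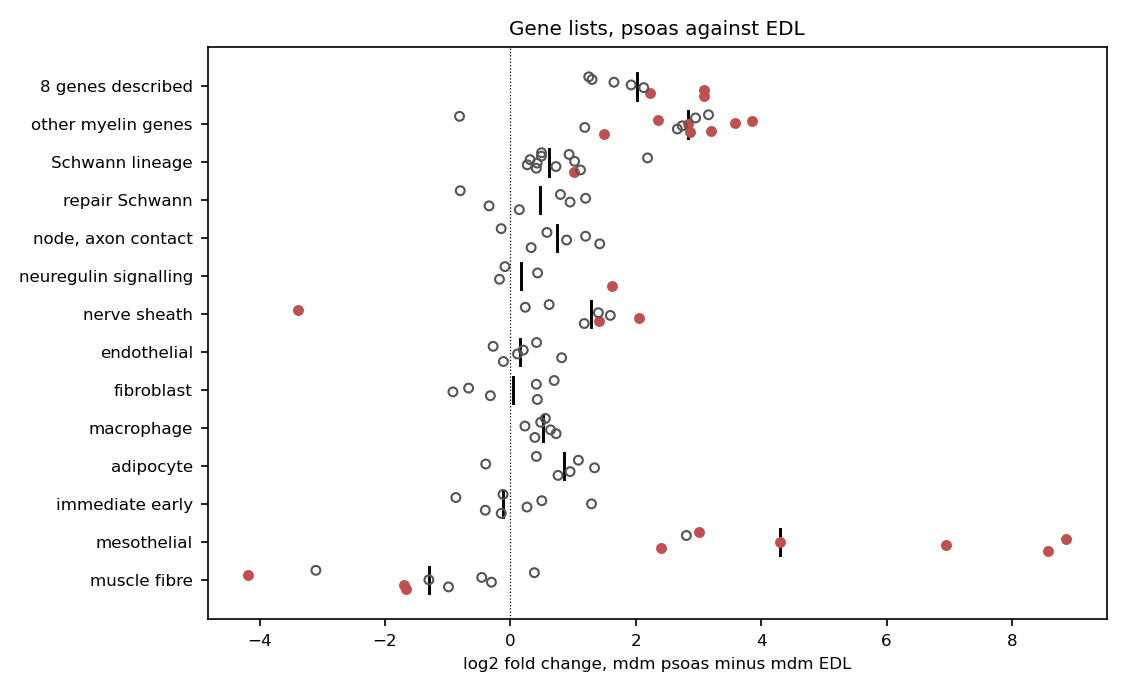
Log2 fold change in psoas minus EDL of each gene tested, one row a gene list; filled circles were called by edgeR (adjusted p under 0.01, difference over 1 in size), open circles were not, and the vertical bar is the list's median. The 8 genes described (median 2.03) and the other myelin genes (median 2.83) lie to the right of the Schwann lineage (0.61) and repair (0.47) lists, the mesothelial genes further right (2.40 and above) and the muscle fibre genes to the left (-1.30).

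The genes whose levels followed the myelin-forming members most closely across libraries were sought by Pearson's r between log2 CPM, taken as deviations from the muscle means, and the mean deviation of Mbp, Prx, Mag and Sox10. The points are the 13 libraries, which share depth and tissue makeup, so r is a description. The reference mean holds low counts, since Mag and Sox10 had 0 reads in EDL replicate 3 and Sox10 also in EDL replicates 4 and 5. Of the genes named next, Dusp15, Cdh1, Ddn and Fmn2 likewise had 0 reads in EDL replicate 3. With the members left out, the 10 genes with the highest r were Dusp15 (0.94), Cldn19 (0.93), Cdh1 (0.93), Ddn (0.92), Sptbn5 (0.92), Cadm4 (0.90), Gm2531 (0.90), Elovl7 (0.90), Fmn2 (0.90) and Plekha4 (0.90). Dusp15 and Cldn19 belong to the list of myelin genes above, and Cdh1, E-cadherin, is a known component of the uncompacted parts of myelin as well as of epithelia.

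Cdh1, Ddn and Fmn2 were also called higher in psoas than in EDL, by 3.8, 4.11 and 3.0 on the log2 scale. Leaving out single libraries ended these calls in 6, 7 and 12 of 13 fits, and Fmn2, like Dusp15, passed the filter on low counts through psoas libraries alone. Gm2531 was not, with a value of -0.41 (standard error 0.64) and low counts in all libraries. With the members counted, those outside the reference mean stood further down, Pmp22 at rank 38 of 17069 tested genes (r = 0.85), S100b 876 (r = 0.61), Egr2 1804 (r = 0.51) and Ngfr 10263 (r = -0.13). Within muscles the Ngfr value thus had little relation to the myelin genes from library to library.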

How the data were processed

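Total RNA of whole muscles of 13 mdm mouse libraries was sequenced as 75-base paired ends from stranded total RNA libraries. Per the labels and the study's methods, the authors trimmed poor libraries with Trimmomatic 0.32, aligned reads with TopHat 2.1.1 to GRCm38.p4, counted them per gene with GenomicAlignments (overlap mode and strand not given in the sources used here) and filtered weakly expressed genes, which left 17924. The deposited counts are whole reads per gene. The deposited normalized signal is the count divided by a DESeq2 size factor that the authors computed with further libraries not used here.

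Counts were fitted with edgeR 4.0.16 (R 4.3.3; TMM scaling, muscle the only factor, all 13 libraries in 1 quasi-likelihood fit), testing 17069 genes. The study also fitted the sequencing run, which the labels do not name. Adjustment followed Benjamini and Hochberg over all genes tested, with limits of 0.01 and a log2 difference of 1. Each standard error is the size of the edgeR log2 difference divided by the square root of its F statistic. It is therefore approximate, above all for genes with 0 reads in some libraries. DESeq2 1.42.0, limma 3.58.1 (log2 of normalized counts plus 1), other scaling, no filter, a term for the label code or replicate number, 2 muscles alone, and leaving out each library were alternatives. Log2 CPM values used a prior count of 2. Scripts were tested on simulated data.

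Members and gene lists were chosen with earlier results of these data known, and the mesothelial list after seeing the data. Named besides the members were every called gene of the nerve lists, a fixed set of Schwann cell and myelin genes, and the 10 genes with the highest correlation to the myelin-forming members. Some genes of the fixed set are not reported here. Symbols and positions came from GENCODE M21 (17833 of 17924 genes matched) and upstream sequences from RefSeq. Of 23 pairs of libraries of 1 muscle none held like counts (chi-square per degree of freedom at least 61.5). Totals of 9114176 to 48835209 leave a single gene's counting error below the spread between libraries for all but the lowest genes, Sox10 among them. Labels do not say which libraries share a mouse, so p-values measure the spread between these samples. Same-numbered EDL and psoas libraries deviated together (correlations of 0.289 to 0.407 over genes, all above 0.1). Soleus libraries had correlations of -0.302 to 0.421 with the same-numbered libraries of the other muscles. The replicate block took the number as a term for all libraries, soleus included. The mice of EDL and psoas replicate 1 differed in age (38 and 29 days), so that pair is not from 1 mouse. Soleus replicates 1 to 3 came from mice of 33, 36 and 38 days. The same-numbered libraries were of 38, 38 and 42 days in EDL and 29, 38 and 42 days in psoas. No soleus library thus shares a mouse with its same-numbered libraries, and for soleus the block joins different mice.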

Additional observations from a re-analysis of the deposited data

Results flagged for a closer look

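In groups of 5 libraries, 78 groups of named genes were examined for a single library far from the rest, and 3 had one. Chance alone gives about 1 in 20 for normally distributed values, so 3 is no excess. The values used were normalized counts without a log scale, which are skewed, so that rate is only a rough guide. Pllp, plasmolipin, a membrane protein of myelin, had a normalized count of 176.5 in psoas replicate 1, and the gap to the next psoas library was 0.736 of the range of the group. Ddn, one of the 10 genes that followed the myelin-forming members, had 137.4 in the same library, with a gap of 0.878 of the range. Gm2531, another of those 10, had 23.0 in EDL replicate 1, with a gap of 0.837 of the range.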

How the results depend on the processing

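In psoas against EDL, 841 genes and 3 of the 8 members were called. DESeq2 called 1586 genes and 5 members, a fit of the 2 muscles alone 557 genes and 2 members, and leaving out psoas replicates 1 and 2, added after seeing the data, 121 genes and 0 members. Leaving out 1 library gave 317 to 802 genes and 0 to 3 members, with the lowest counts without EDL replicate 3 (317), psoas replicate 2 (365), EDL replicate 5 (426) and psoas replicate 1 (447). In soleus against EDL, 167 genes were called, 633 by DESeq2 and 86 with the label code as a term, and leaving out 1 library gave 19 (without soleus replicate 1) to 182. It gave 23 without soleus replicate 2, 55 without soleus replicate 3, and 97, 75, 57 and 86 without EDL replicates 1, 2, 3 and 5. In soleus against psoas, 13 genes were called, 171 by DESeq2, 20 by limma, 6 with the label code, 8 from the 2 muscles alone and 2 without psoas replicates 1 and 2, and leaving out 1 library gave 3 (without soleus replicate 1 or 2) to 21 (without EDL replicate 5). Members called in both soleus comparisons were 0 throughout. The cause of these shifts was not tested. Where libraries were left out, their smaller number and the choice of library cannot be told apart. The replicate block, which groups the libraries of all muscles by number, called 1192 genes and 4 members in psoas against EDL, 126 genes in soleus against EDL and 11 in soleus against psoas. No result changed direction while called. Sox10, Mag, Egr2 and Ngfr rest on few reads, so depth limits their precision.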

Other observations

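The axonal gene Prph, peripherin, an intermediate filament protein of peripheral neurons, had normalized counts of 32.4, 16, 29.9, 45.7 and 29.8 in EDL, 16.8, 2.14, 5.5, 10.4 and 14.1 in psoas, and 19.4, 12.9 and 24.1 in soleus. The 2 groups of fast muscle overlapped in 1 pair of libraries alone, and the psoas minus EDL difference was -1.63 on the log2 scale (standard error 0.48, edgeR adjusted p = 0.0298), so that edgeR did not call it, whereas DESeq2 did. Neuronal transcripts in muscle come from axons and terminals, since the cell bodies lie elsewhere, and the counts are low.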
